A study of Mus musculus with 3 samples.

Results

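The epithelium of the mouse large intestine was compared with that of the upper small intestine over all gene names of an RNA sequencing data set, with 1 library a side. Every gene at 1 FPKM or more in either library entered the comparison, apart from names of short RNA classes (Mir, Snor and Rnu prefixes), which left 12276 of 24346 gene names. FPKM, fragments per kilobase of transcript scaled to the size of a library, is taken here as the unit of the deposited values. The difference is that of log2(FPKM + 1), large minus upper, and a gene is called higher or lower where it is at least 1 in size, a 2-fold ratio of FPKM + 1. With 1 library a side there is no replicate error, so no test was made and all calls are by size.

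The series holds 3 libraries of mouse intestinal epithelial cells, 1 each for large, lower small and upper small intestine. No treatment or genetic change is named for the large and lower intestinal libraries, and age, sex and the number of animals are not stated. Opened, washed intestines were shaken in 5 mM EDTA, which loosens the epithelium from the tissue beneath it, at 37 °C for 20 min, and the cells shed were collected without a sort being described. A strain entry is present for the upper small intestinal library alone and names MC38, a colorectal cancer model, so if it holds for that library, strain and region cannot be told apart.

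The upper small intestine digests and absorbs most nutrients: enterocytes carry disaccharidases and peptidases on a dense brush border, take up sugars, amino acids and fat, and send fat on as chylomicrons, while Paneth cells at the crypt base secrete alpha-defensins and lysozyme. The large intestine has no villi and normally few or no Paneth cells. It recovers sodium and water, takes up short-chain fatty acids made by bacteria and is covered by mucus from abundant goblet cells. Position along the gut is marked by transcription factors, among them GATA4 in the proximal small intestine and the posterior HOX proteins in the colon.

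Values below are FPKM unless called a difference, and sets of 3 give the large intestine first, then the lower and last the upper small intestine. The lower library entered neither side of the difference and is given as context. Summed FPKM was 521651, 646262 and 693218, with 11589, 11595 and 11491 genes at 1 FPKM or more. Judged by the steps between low values, a 2 kb transcript at 1 FPKM held about 16.7, 21.7 and 14.7 reads. Intervals on ratios are exact Clopper-Pearson intervals at the 95% level from reads implied by that spacing and the shortest annotated transcript, and cover counting error only. An exact 0 can be a failed estimate, and such genes are called listed at 0. Markers of epithelium were abundant in all 3 libraries, with the adhesion molecule gene Epcam at 806, 879 and 666, the cadherin gene Cdh1 at 302, 225 and 178 and the keratin gene Krt8 at 2845, 2676 and 1682. Sex-linked genes gave the same picture in all 3, with the Y-linked genes Ddx3y at 14.7, 13.8 and 12.9 and Eif2s3y at 54.3, 46.6 and 44.7.

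3 promoter windows are printed first, of genes picked from those with the largest differences in this comparison. Mptx1 and Mptx2 encode mucosal pentraxins, secreted lectin-like proteins of the gut, and lie on chromosome 1. Mptx1 was at 3341, 2.40 and 1.69 and Mptx2 at 0.224, 759 and 736, so the 2 relatives stood at opposite ends of the comparison. Their upstream windows, from RefSeq on GRCm38.p6, matched at 198 of 228 aligned bases (86.8%). The first window is chr1:174330268-174330517 (plus strand, 250 bases) and the other chr1:173277778-173278006 (minus strand, 229 bases), both stopping before the gene's start in GENCODE M21, which for Mptx2 lies upstream of the RefSeq start, and capitals mark bases that differ from, or have no partner in, the other window.
Mptx1: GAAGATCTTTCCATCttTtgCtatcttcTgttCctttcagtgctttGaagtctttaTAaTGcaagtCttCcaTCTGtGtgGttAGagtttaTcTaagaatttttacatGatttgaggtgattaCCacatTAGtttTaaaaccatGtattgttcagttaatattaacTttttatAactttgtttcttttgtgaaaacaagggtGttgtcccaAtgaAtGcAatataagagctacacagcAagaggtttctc
Mptx2: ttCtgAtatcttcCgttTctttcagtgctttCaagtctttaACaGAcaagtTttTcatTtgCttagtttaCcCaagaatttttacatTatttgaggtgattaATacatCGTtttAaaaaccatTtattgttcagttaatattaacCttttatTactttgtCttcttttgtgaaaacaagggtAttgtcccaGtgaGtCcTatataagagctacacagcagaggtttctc
Fabp1, the liver-type fatty acid binding protein gene, had the largest difference of all genes in favour of the upper small intestine (1.15, 329.8 and 7255). Its window is chr6:71199629-71199826 (plus strand, 198 bases), with capitals at letters TTTATGG on either strand, a core read by the intestinal CDX factors.
Fabp1: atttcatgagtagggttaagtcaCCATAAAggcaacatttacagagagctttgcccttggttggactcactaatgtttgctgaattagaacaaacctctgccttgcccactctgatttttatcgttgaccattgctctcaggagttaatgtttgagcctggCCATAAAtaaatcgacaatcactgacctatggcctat
The letters were found 2 times in that window. Their presence is a description and does not show binding.

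1356 genes were higher in the large intestine (11.0% of those compared) and 1419 lower (11.6%), so that 2775 genes or 22.6% were called in either direction. The median difference was 0.0, the middle of the distribution ran from -0.43 to 0.43 (25th to 75th percentile), and its 5th and 95th percentiles were -1.75 and 1.69. Large differences were more often in favour of the upper small intestine: 98 genes were at -5 or less and 42 at 5 or more, and 269 were at -3 or less against 200 at 3 or more. At 10 FPKM or more in one library and under 1 FPKM in the other were 104 genes of the large intestine (0.847% of those compared) and 108 of the upper small intestine (0.880%). Of these, 28 were listed at 0 in the upper and 24 in the large library.

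The lower genes took up more of their library than the higher genes did of theirs. Shares here are of the FPKM summed over the compared genes, short RNA names left out. Genes called lower held 33.7% in the upper library, 30.1% in the lower library and 4.59% in the large. Genes called higher held 18.1% in the large library, 5.74% in the lower and 2.88% in the upper. The deposited values share a common scale with a median difference near 0. When each library was instead brought to the same sum, the median of all genes moved to 0.27, 1877 genes were called higher and 1057 lower, and 64.0% of called genes were higher in place of 48.9%. The medians of the 67 gene lists then moved by between -0.23 and 0.69, with 0.28 as the middle value.

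**Figure D1:**
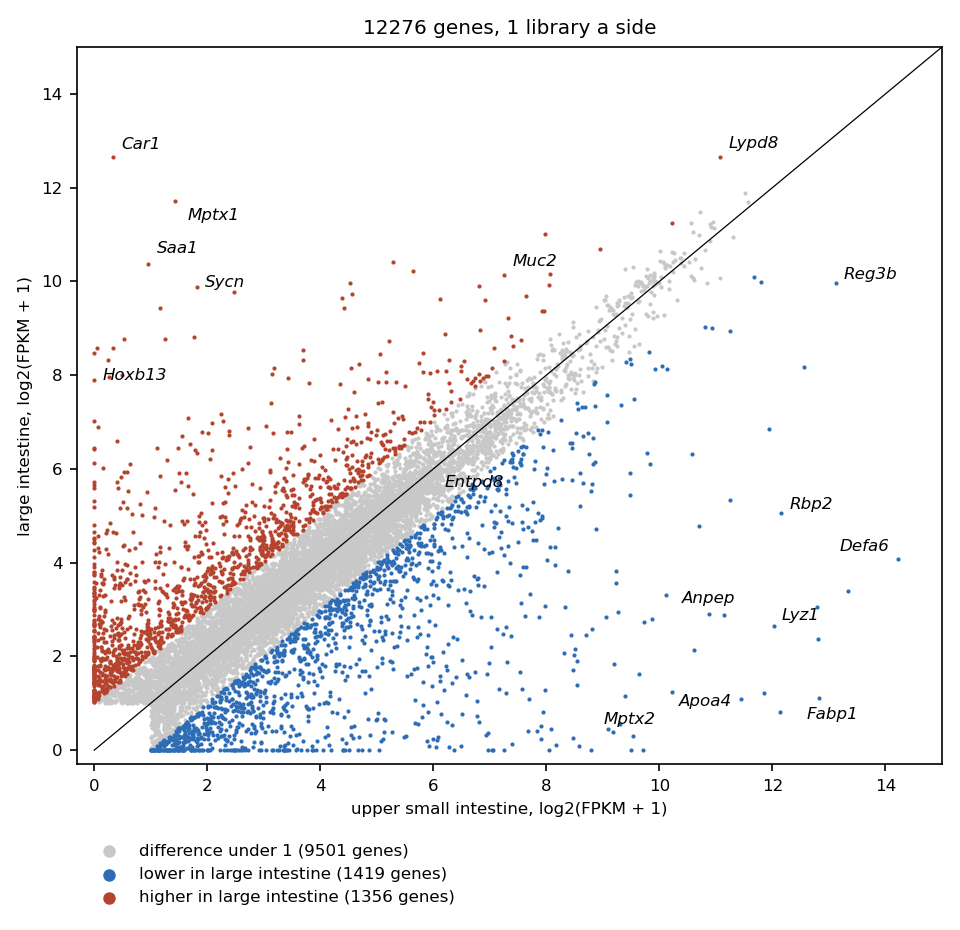
Each point is 1 of 12276 genes, with log2(FPKM + 1) in the upper small intestinal library on the x axis and in the large intestinal library on the y axis. Coloured points are the 1356 genes called higher and 1419 called lower in the large intestine, and the solid line marks equal values in both libraries.

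The lower small intestinal library lay nearer to the upper one for most called genes. Of 1356 genes higher in the large intestine, 904 had a lower small intestinal value between the others and nearer to the upper library, 260 had one beyond the upper library, 166 one nearer to the large and 26 one beyond the large. The 1419 lower genes divided into 680 nearer to the upper library, 407 beyond it, 275 nearer to the large and 57 beyond the large. Saa1, a serum amyloid A gene, was an example of the less common pattern, at 1328, 337 and 0.944. Reg1, a secreted lectin gene, was another, at 1.36, 5.69 and 1199, high in the upper library and near the large one in the lower library.

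The leading gene of the large intestine was Car1, carbonic anhydrase 1, which interconverts carbon dioxide and bicarbonate, at 6414, 0.172 and 0.257 (difference 12.32). The upper library held about 1 implied read of it. The amino acid carrier gene Slc6a14 was at 382, 6.15 and 0.039 and Tgm3, a transglutaminase gene, at 352, 0.021 and 0. St6galnac6, a sialyltransferase gene, was at 317, 0.725 and 0.181 and Hao2, a peroxisomal hydroxy acid oxidase gene, at 254, 1.24 and 0.41. All were under 1 FPKM in the upper library and, except Slc6a14 and Hao2, in the lower one. 1810065E05Rik, a gene without a settled function here, had a lower small intestinal value of 36.8 between 879 and 4.55. Thbs4, which encodes the matrix protein thrombospondin 4, was at 117, 0.028 and 0.042. Hoxa11os, a transcript antisense to Hoxa11, was at 84.3, 0 and 0, and reads of overlapping genes may not have been separated.

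Next to Fabp1 and several alpha-defensin genes, apolipoprotein genes were among those furthest in the other direction. Apoc3, an apolipoprotein gene, was at 0, 203 and 835 and Apoa4 at 1.12, 504 and 2797. Olfm4, an olfactomedin gene of the crypt base, was at 0.305, 396 and 579. Adh6a, an alcohol dehydrogenase gene, was at 0.481, 58.01 and 629, with the lower library far below the upper one. Itln1, intelectin 1, which binds microbial glycans, was at 3.40, 1407 and 1566, with little between both small intestinal libraries. The most abundant gene of the large library was Lypd8, whose product keeps flagellated bacteria away from the colonic surface, at 6486, 2417 and 2153. In the upper library it was the alpha-defensin gene Defa6 at 15.9, 18619 and 19046.

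**Figure D2:**
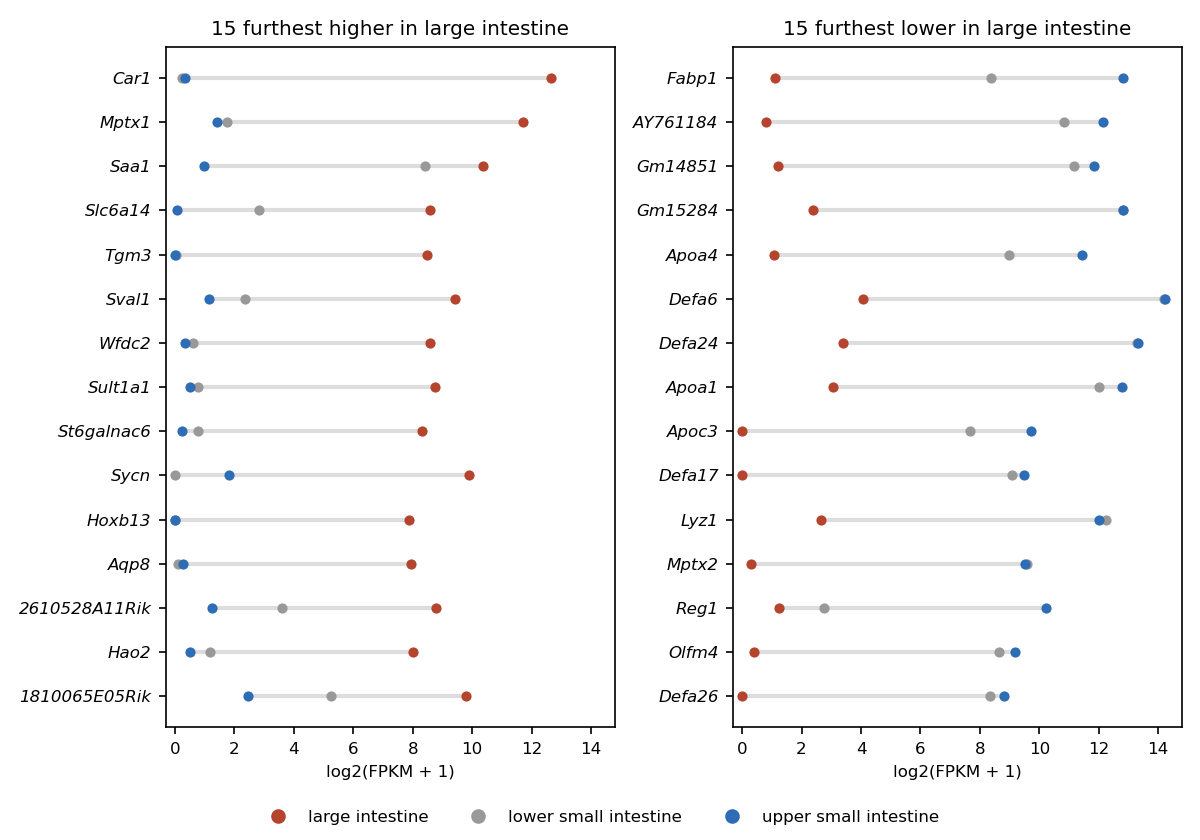
Genes with the largest differences at 10 FPKM or more, with log2(FPKM + 1) on the x axis and 1 point per library. Genes higher in the large intestine, led by Car1 and Mptx1, had lower small intestinal values mostly beside those of the upper library, and genes lower in the large intestine, led by Fabp1, had more spread ones.

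Genes that digest or take up sugars, peptides, amino acids, fat and vitamins were mostly lower in the large intestine, whereas sterol, metal, mineral and bile acid genes were not. Of 13 compared genes of brush-border carbohydrate digestion and sugar transport, 12 were lower and none higher, with a median difference of -5.75, beside 0.0 for all genes. Lct, lactase, was at 0.201, 33.4 and 356 and Treh, trehalase, at 0.439, 53.1 and 238, so both were also several-fold lower in the lower than in the upper small intestine. Slc2a2, the basolateral glucose carrier GLUT2, was at 0.092, 15.1 and 168 and Slc5a1, the sodium-glucose cotransporter SGLT1, at 67.6, 409 and 915. The last of these and Mgam, maltase-glucoamylase, at 79.9, 611 and 876, remained well above 10 FPKM in the large intestine. The gene not called was Slc5a9, a mannose and glucose carrier, at 6.28, 8.34 and 11.5.

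Of 13 compared brush-border peptidase genes, 11 were lower and 1 higher, with a median of -3.87. Enpep, aminopeptidase A, was at 4.47, 475 and 417. Tmprss15, enteropeptidase, which activates trypsinogen, was listed at 0 outside the upper library and at 13.6 FPKM there. Mep1a and Mep1b, the subunits of the metalloprotease meprin, went different ways. Mep1b was at 50.2, 507 and 447, lower in the large intestine, whereas Mep1a was at 132, 167 and 42.9, higher than in the upper library but below the lower one.

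Amino acid and peptide carriers held 11 lower and 3 higher genes among 19 compared, with a median of -2.82 (-1.65 with all 22 in the files). Slc7a9 and Slc3a1, which together form the cystine and dibasic amino acid carrier, were at 4.57, 176 and 150.1 and 9.67, 95.8 and 85.6. Slc15a1, the peptide carrier PEPT1, was at 38.4, 159 and 217. The 3 higher genes were Slc6a14, given above, Slc1a5, a glutamine carrier, at 109, 45.9 and 28.6, and Slc43a1, a large neutral amino acid carrier, at 2.37, 1.47 and 0.281.

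Among 24 genes of fat uptake and chylomicron assembly, 21 were lower and 1 higher, with a median of -4.14. Mttp, which loads lipid onto apolipoprotein B, was at 1.22, 283 and 668, and Apob itself at 14.03, 158 and 198. The re-esterification enzyme genes Mogat2 and Dgat1 were at 1.11, 111 and 206 and 25.3, 283 and 468. The intestinal fatty acid binding protein gene Fabp2 stayed at 287 in the large intestine beside 6064 in the upper, a smaller relative difference than that of Fabp1. The higher gene was Scarb1, a lipoprotein receptor, at 6.96, 0.591 and 2.07.

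Sterol genes were divided by role. Of 24 compared, 6 were higher and 5 lower, with a median of 0.76, and 13 were higher when libraries were brought to the same sum and 3 with a pseudocount of 5. All 5 lower genes act in uptake, esterification or export: Npc1l1, the luminal cholesterol receptor, was at 0.325, 168 and 204, Soat2, which esterifies cholesterol, at 1.48, 85.4 and 141, and the exporter genes Abcg5 and Abcg8 at 2.71, 96.6 and 157 and 1.44, 43.1 and 71.9. The fifth, the efflux gene Abca1, was at 1.15, 3.79 and 8.90. All 6 higher genes encode enzymes of sterol synthesis, with differences between 1.01 for Dhcr7 and 1.25 for Mvd. Hmgcs1, which opens the pathway, was at 170.2, 169 and 78.5. These differences were just past the limit of 1, and the lower small intestinal values of Hmgcs1 and Fdft1 (41.4, 37.7 and 18.9) were near those of the large intestine.

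Vitamin genes were mostly lower, 13 of 20 with 1 higher and a median of -1.53. Rbp2, which binds retinol in enterocytes, was at 32.2, 551 and 4561, Slc46a1, the proton-coupled folate carrier, at 8.52, 4.66 and 66.9 and Slc23a1, an ascorbate carrier, at 0.311, 6.99 and 37.4. The exception was Stra6l, a retinol carrier gene, at 11.2, 5.15 and 4.49. Metal genes divided evenly, with 5 higher and 5 lower of 20 (5 and 2 at the same sum) and a median near 0. Slc40a1, the iron exporter ferroportin, was at 85.4, 15.1 and 18.8, a large to upper ratio of 4.54 (interval 3.199 to 6.75). Slc11a2, the iron importer DMT1, was just past the limit in the other direction at 12.9, 15.7 and 26.9.

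Of 14 calcium, magnesium and phosphate genes, 5 were higher (9 at the same sum) and none lower, with a median of 0.77. Slc20a1, a sodium-phosphate cotransporter gene, was at 351, 24.3 and 32.2 and Trpm6, a magnesium channel gene, at 19.7, 2.72 and 0.438. The magnesium exchanger gene Cnnm4 was at 95.6, 53.3 and 36.8. S100g, the calcium-binding protein calbindin-D9k, was not called, at 229, 10.2 and 188, since the large and upper libraries were both far above the lower one.

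Bile acid genes divided 4 higher and 4 lower of 8, with a median of 0.02. Slc10a2, the apical bile acid carrier, was at 24.2, 102 and 0.618 and Fabp6, which carries bile acids within the cell, at 38.3, 7245 and 0.416. Both peaked in the lower small intestine, so their higher calls rest on near-absence from the upper library. Slc51a and Slc51b, the subunits of the basolateral exporter, were lower than in the upper library, at 26.8, 346 and 115 and 52.98, 428 and 134. The apical exporter gene Abcc2 was at 0.652, 30.6 and 108 and the basolateral Abcc3 at 104, 24.6 and 30.7, in opposite order.

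**Figure D3:**
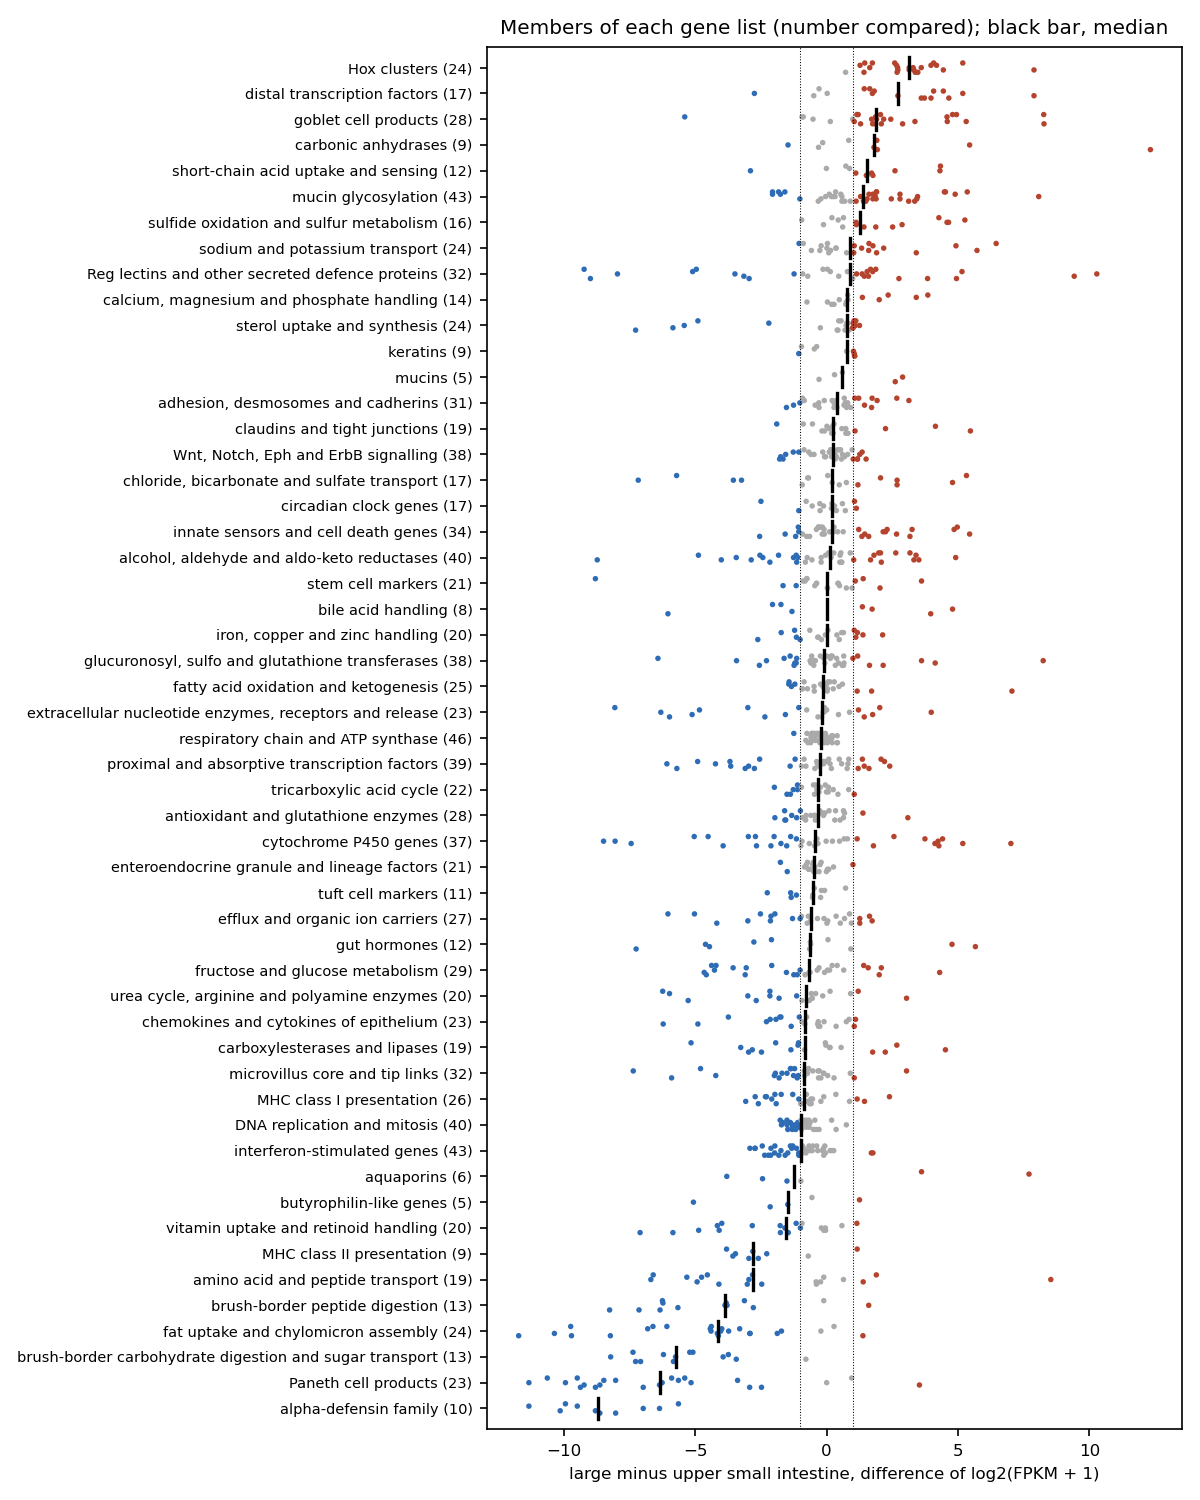
Each point is a compared gene, placed by its difference of log2(FPKM + 1), large minus upper small intestine, in the row of its list. Black bars are list medians, and rows run from the Hox clusters (median 3.14) at the top to the alpha-defensin family (-8.71) at the bottom. Lists of marker genes for other cell types and of sample preparation are not drawn.

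Several ion transport genes known from the large bowel were higher. Of 24 sodium and potassium genes, 12 were higher and 1 lower, with a median of 0.9. Scnn1a and Scnn1b, subunits of the aldosterone-regulated sodium channel ENaC, were at 53.9, 6.03 and 4.16 and 3.51, 0 and 0. Hsd11b2, which keeps glucocorticoids off the mineralocorticoid receptor, was at 143, 11.7 and 3.75 and that receptor's gene Nr3c2 at 42.9, 10.96 and 13.5. Fxyd4, a regulator of the sodium pump, and Atp12a, the colonic proton-potassium pump, were at 51.9 and 86.6 FPKM with 0 listed for each small intestinal library. Atp1b1, the beta subunit of the sodium pump, was not called at 832, 623 and 963. The lower gene was the potassium channel gene Kcnj13 at 0.382, 8.84 and 1.87.

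Chloride, bicarbonate and sulfate genes held 6 higher and 4 lower of 17, with a median of 0.21. Slc26a3, the chloride-bicarbonate exchanger DRA, was at 472, 48.7 and 72.7, and its relative Slc26a6 at 1.08, 56.8 and 108. The calcium-activated chloride channel gene Ano1 was at 51.5, 1.11 and 0.315, whereas Cftr, the cyclic nucleotide-activated one, was at 45.4, 32.1 and 44.1 and not called. Of 16 carbonic anhydrase genes in the files 9 were compared, 5 higher and 1 lower, with a median of 1.8 (0.3 with all 16). Besides Car1, Car2 was at 995, 3.72 and 21.97 and the membrane-bound Car4 at 598, 162 and 158. Water channel genes held 2 higher and 3 lower of 6, with a median of -1.25 (-0.19 with all 10 in the files). Aqp8 and Aqp4 were at 247, 0.066 and 0.197 and 107, 7.14 and 7.90, and Aqp3, which also passes glycerol, at 0.21, 5.40 and 15.9.

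Of 12 genes of short-chain acid uptake and sensing, 8 were higher and 1 lower, with a median of 1.52 (0.8 with all 18 in the files). Slc5a8, a sodium-coupled butyrate carrier, was at 104, 39.7 and 4.24 and Slc16a1, the proton-coupled carrier MCT1, at 94.9, 24.04 and 32.7. Acsm3, which activates medium-chain acids, was at 83.4, 4.22 and 3.25 and Acads, which oxidises butyryl-CoA, at 135, 41.5 and 40.7. The receptor gene Ffar2 was at 5.06, 1.27 and 1.1. The lower gene was Slc16a3, a lactate exporter, at 0.851, 7.64 and 12.8.

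In central metabolism most members were called in the urea cycle, sugar and sulfide lists. Fewer were called in the fatty acid and tricarboxylic acid cycle lists, and 1 gene in the respiratory chain list. Over all genes compared, 22.6% were called. Among 25 genes that oxidise fatty acids or make ketones, 3 were higher and 4 lower, and the median of -0.13 became 0.16 when libraries were brought to the same sum. Bdh1, which interconverts the ketone bodies, was not called at 63.7, 50.03 and 61.5. Peroxisomal genes were on the lower side, with Ehhadh at 21.5, 27.9 and 60.2 and Hsd17b4 at 35.2, 36.8 and 96.2.

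Urea cycle, arginine and polyamine genes were 9 lower and 2 higher of 20, with a median of -0.8. Cps1 and Otc, which make citrulline in enterocytes, were at 7.31, 254 and 319.7 and 12.1, 82.9 and 104, and Arg2, mitochondrial arginase, at 4.51, 52.9 and 347. Asl, a later enzyme of the cycle, was not called at 20.9, 15.97 and 19. Gatm, which starts creatine synthesis, was higher at 11.1, 0.626 and 0.467, while Ckb, the brain-type creatine kinase, was lower at 3.18, 21.7 and 315.

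Fructose and glucose genes held 13 lower and 5 higher of 29, with a median of -0.67. Khk and Tkfc, enzymes of fructose breakdown, were at 13.1, 102 and 335 and 9.10, 92.8 and 209. G6pc, which releases free glucose, was listed at 0 in the large intestine and was at 24.3 in the upper library. The 5 higher genes were glycolytic: hexokinases Hk1 (59.5, 4.46 and 2.06) and Hk2 (28.1, 35.1 and 8.75), the phosphofructokinase Pfkl (64.7, 10.8 and 15.4), the aldolase Aldoa (659.9, 296 and 248) and the lactate dehydrogenase Ldhb (4.68, 0.383 and 0.343).

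Sulfide and sulfur genes were 10 higher and none lower of 16, with a median of 1.27. Sqrdl, Ethe1 and Tst, which oxidise sulfide in mitochondria, were at 305, 51.3 and 52.7, 321, 23.6 and 11.9 and 168, 17.2 and 7.77. Selenbp1, a methanethiol oxidase, was at 802, 22.8 and 19.9. Suox, the last step to sulfate, was at 6.16, 118 and 4.28, not called here because the large and upper libraries were alike and the lower one stood above both.

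Respiratory chain and ATP synthase genes were near 0 as a group, with 1 lower and none higher of 46 and a median of -0.22 that became 0.08 at the same sum. The lower gene was Ndufa4, a subunit associated with cytochrome c oxidase, at 302, 565 and 720.0. Of 22 tricarboxylic acid cycle genes 6 were lower and 1 higher (3 and 2 at the same sum), with a median of -0.34. Mdh2 and Mdh1, malate dehydrogenases, were at 279, 553 and 1116 and 189, 369 and 539.

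Genes that handle foreign compounds were found on both sides. Of 37 cytochrome P450 genes, 10 were higher and 15 lower, with a median of -0.46 (-0.13 with all 55 in the files). Cyp3a11 and Cyp2b10, targets of the nuclear receptors PXR and CAR, were at 0.059, 11.8 and 379.5 and 0, 13.3 and 264. The receptor genes Nr1i2 (PXR) and Nr1i3 (CAR) were at 39.98, 35.4 and 48.9 and 3.62, 7.95 and 58.2. In the other direction Cyp2c55 was at 852, 2.17 and 22.5 and Cyp2d34 at 128, 0.059 and 0, and Cyp2d9, Cyp2d10, Cyp2d12 and Cyp2d13 were at 12.3, 16.4, 20.2 and 18.3 in the large intestine with 0 listed in the upper library. These Cyp2d genes are close copies, so reads may be split among them.

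Of 38 conjugating transferase genes, 6 were higher and 10 lower, with a median of -0.09 that became 0.21 at the same sum. Sult1a1, a phenol sulfotransferase, was at 433, 0.723 and 0.432, and Ugt2a3, a glucuronosyltransferase, at 0.057, 10.1 and 89.3. Carboxylesterases and lipases were 4 higher and 9 lower of 19, with a median of -0.84 that was -0.15 at the same sum, -0.29 with a pseudocount of 5, -0.44 with a filter of 5 FPKM and -0.04 with all 30 genes in the files. Ces1g was at 80.2, 0.202 and 2.53 and Ces2e at 103, 236 and 398, so these esterase relatives also differed in direction. Alcohol, aldehyde and aldo-keto genes were 12 higher and 13 lower of 40, with a median of 0.12 that was -0.04 with a filter of 5 FPKM. The carbonyl reductase gene Cbr3 was at 72.1, 0.088 and 1.44, and Aldh2, mitochondrial aldehyde dehydrogenase, at 318, 55.7 and 76.2.

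Efflux and organic ion carriers were 10 lower and 4 higher of 27, with a median of -0.61 (-0.06 with all 32 in the files). The nucleoside carrier gene Slc28a1 was listed at 0 in the large intestine and was at 31.8 in the upper library. Abcb1a, the drug efflux pump P-glycoprotein, was just short of the limit at 229, 83.3 and 119. Antioxidant genes held 6 lower and 2 higher of 28, with a median of -0.34, where 22.6% of all genes compared were called. Prdx6, a peroxiredoxin gene, was at 954, 104 and 111, a large to upper ratio of 8.61 (interval 7.85 to 9.48), and Gpx4, which reduces lipid peroxides, was at 108, 175 and 427.

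Antimicrobial genes of Paneth cells were low in the large intestine. Of 23 compared Paneth cell genes, 20 were lower and 1 higher, with a median of -6.36. Of 17 alpha-defensin family genes in the files, 10 were compared and all 10 were lower, with a median of -8.71 (-6.36 with all 17). Listed at 0 were 10 of the 17 in the large library and 6 in the upper. Their summed FPKM was 34.73, 40460 and 37330. Reads may be shared among these near-identical genes, so single values are uncertain and the sum is the safer quantity. Lyz1, Paneth cell lysozyme, was at 5.26, 4824 and 4151 and Mmp7, which matures alpha-defensins, at 1.47, 309 and 188. Spink4, a protease inhibitor gene also made by goblet cells, was alike in the large and upper libraries at 1335, 2215 and 1333. The exception was Nupr1, a stress-responsive nuclear protein gene, at 426, 57.5 and 36.03.

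Goblet cell products were higher, 22 of 28 with 1 lower and a median of 1.88. Muc2, the gel-forming mucin, was at 1128, 329.6 and 151, a large to upper ratio of 7.48 (interval 6.59 to 8.53). The lineage factor genes Atoh1 and Spdef were at 29.4, 16.03 and 8.33 and 36.7, 17.7 and 9.08. Not all goblet genes followed: the trefoil factor gene Tff3 was at 992, 2215 and 1835, the mucus protein gene Fcgbp at 421, 641 and 603 and the lectin gene Zg16 at 3331, 3193 and 3017, none of them called. Others differed widely, with Nxpe2 at 38.7, 0.027 and 0, Retnlb, which encodes the secreted protein RELM-beta, at 45.4, 4.65 and 0.514 and Klk1, kallikrein 1, at 1196, 77.5 and 48.7. Ang4, an antimicrobial ribonuclease made by Paneth and goblet cells, was the 1 lower gene at 13.2, 705 and 599.

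The enzymes that build mucin glycans were 24 higher and 6 lower of 43, with a median of 1.4 (0.79 with all 50 in the files). B3gnt6, which makes the core 3 O-glycan of the colon, was at 13.4, 1.32 and 0.407 and B3gnt7, which extends chains, at 246, 21.6 and 9.72. Fut2, which adds terminal fucose, was at 60.4, 6.98 and 0.502. Sialyltransferases were found on both sides, with St6gal1 at 25.04, 0.899 and 0.164 and St3gal4 at 179, 762 and 746. Of 5 mucins, 2 were higher and none lower, and Muc13, a membrane mucin, was at 509, 725 and 624.

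Other secreted defence genes held 14 higher and 9 lower of 32, with a median of 0.87 (0.02 with all 42 in the files). The bactericidal lectins Reg3b and Reg3g were at 1002, 22050.0 and 8893 and 114, 12929 and 3945, high in both small intestinal libraries and most of all in the lower one. Sprr2a3, a small proline-rich protein gene, was at 104, 20.4 and 1.95. Nox1, an NADPH oxidase of the colon, was at 13.1, 7.96 and 3.197, and Nos2, inducible nitric oxide synthase, at 0.144, 114 and 11.9. Pigr, which carries antibodies into the lumen, was not called at 1435, 1275 and 1582.

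Innate sensor and cell death genes were 13 higher and 5 lower of 34 (13 and 2 at the same sum, 8 and 3 with a pseudocount of 5), with a median of 0.19. The surface Toll-like receptor genes Tlr1, Tlr2, Tlr4 and Tlr5 were higher, at 32.4, 6.90 and 2.70, 9.35, 4.63 and 1.33, 5.33, 0.508 and 0 and 4.12, 0.478 and 0.042. Tlr3, an endosomal receptor, was at 10.9, 14.04 and 12.3 and not called. Gsdmc2, Gsdmc3 and Gsdmc4, gasdermin genes, were at 283, 52.2 and 8.05, 135, 19.4 and 2.14 and 372, 49.8 and 11.9, whereas Gsdmd, which forms pores after inflammasome cleavage, was at 72.8, 118 and 167. Aim2, a sensor of cytosolic DNA, was at 28.6, 5.38 and 2.10.

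Antigen presentation and interferon genes tended to be lower than in the upper library. Of 9 MHC class II genes, 7 were lower and 1 higher, with a median of -2.81. H2-Ab1 was at 25.6, 519 and 294, the invariant chain gene Cd74 at 59.2, 1453 and 716 and their transactivator Ciita at 0.769, 18.03 and 7.62. The higher gene was Ctss, cathepsin S, at 233, 115 and 104. Of 26 class I genes, 11 were lower and 3 higher, with a median of -0.87. B2m, the class I light chain, was at 516, 1898 and 1960.1 and the immunoproteasome subunit genes Psmb8 and Psmb9 at 31.05, 194 and 155 and 18.6, 152 and 118. The constitutive proteasome showed no such calls, with 0 of 31 genes in either direction and a median of -0.38.

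Of 43 interferon-stimulated genes, 21 were lower and 2 higher, with a median of -0.99, and 13 were lower and 1 higher with a pseudocount of 5. Isg15, a ubiquitin-like modifier, was at 10.5, 58.7 and 75.3 and Oas3, a sensor of double-stranded RNA, at 2.18, 13.2 and 19.97. The 2 higher genes were Iigp1 at 4.8, 8.47 and 0.781 and Gbp2 at 10.5, 11.6 and 2.40, both GTPases. Butyrophilin-like genes, which select intraepithelial gamma-delta T cells, were 3 lower and 1 higher of 5, with a median of -1.48 (-0.28 with all 8 in the files). Btnl1 was at 35.5, 99.1 and 161 and Btnl6 at 87.3, 236 and 245. Chemokines and cytokines were 10 lower and 2 higher of 23 (4 and 1 with a pseudocount of 5), with a median of -0.83 (-0.3 with all 34 in the files). Ccl25, which draws T cells to the small intestine, was at 6.13, 411 and 529, and Il33 at 0.141, 4.26 and 14.3.

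T cell transcripts were lower beside these lists. Of 22 compared T cell genes, 19 were lower (12 with a pseudocount of 5) and none higher, with a median of -2.3 and a summed FPKM of 46.5, 988.4 and 955.2. Cd3g, a subunit of the T cell receptor complex, was at 2.68, 29.4 and 37.4, Cd8a at 0.75, 15.9 and 17.4 and Gzma, a cytotoxic granule protease, at 3.09, 334 and 357. Ccl5 (7.43, 273 and 251), counted among the chemokines, is also a T cell gene. Of 14 compared myeloid genes 7 were lower and 1 higher, with a summed FPKM over the list of 12.19, 119.1 and 91.18, and the plasma cell gene Jchain was at 0, 22.5 and 28.1. No B and plasma cell gene other than Jchain and Sdc1, which epithelium also makes, reached 1 FPKM in the large or upper library. The part of such cells in the class II, class I, interferon and chemokine values was not tested. In bulk libraries fewer cells of a type and less RNA per cell cannot be told apart, here and for the Paneth and goblet genes above.

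Markers of other tissues are given next. Of 18 compared pancreatic acinar genes, 14 were lower (7 with a pseudocount of 5) and 2 higher, with a median of -2.37 (-1.31 with all 27 in the files). Ctrb1, Cela2a and Pnlip, digestive enzymes of the pancreas, were at 15.5, 13.4 and 8.63 in the upper library and listed at 0 in the large and lower ones. Cpa1 and Prss2 were found likewise in the upper library alone, at 4.85 and 6.50. The part of pancreatic RNA in other values of the upper library was not tested. Rnase1, a ribonuclease gene, was at 0.572, 7.28 and 30.6. In the opposite direction Sycn, syncollin, was at 939.7, 0 and 2.52, a large to upper ratio of 373 (interval 209 to 802). Cela1, an elastase gene, was at 227, 5.71 and 12.9, so these 2 genes went against the 14 lower acinar genes. The summed FPKM over the acinar list was 4501, 3209 and 3146, highest in the large intestine although most compared genes were lower there.

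Of 26 stroma and muscle genes in the files, 6 were compared, 2 of them higher, and the summed FPKM was 20.01, 23.33 and 14.87. Krt5 and Trp63, markers of squamous epithelium as found at the anal canal, were listed at 0 in all 3 libraries. Of the 18 squamous genes in the files, 2 were compared and none called, and the summed FPKM was 3.702, 6.629 and 4.365. Of 17 stomach and Brunner gland genes in the files, 4 were compared, 1 higher and 2 lower, and the summed FPKM of 1256, 774.9 and 727.9 was mostly that of Dmbt1, a mucosal scavenger receptor gene also made by intestinal epithelium, at 1224, 745 and 670.4 and not called. Muc5ac, Gkn1 and Atp4b, defining genes of the stomach, were listed at 0 in all 3 libraries. Ctse, cathepsin E, was at 24.3, 0.352 and 0.262, and Gkn3, a gastric gene, at 0, 0.431 and 5.58. Immediate-early and heat-shock genes, which respond to tissue handling, were 7 higher and none lower of 26, with a median of 0.41. The share called over all genes compared was 22.6%, and 11.0% were higher. Klf2 was at 26.04, 5.70 and 5.46 and Nr4a1 at 55.04, 21.6 and 14, whereas Fos was at 724, 486 and 535 and Hspa1a at 64.3, 113 and 78.9, neither called. The part of handling in other genes was not tested.

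Lineage genes differed by cell type. Stem cell markers were 4 higher and 3 lower of 21, with a median of 0.03 that was -0.27 without the filter on low values. Lgr5, a receptor of crypt base stem cells, was not called at 3.78, 5.02 and 3.68, and Ascl2, a stem cell transcription factor, was at 3.11, 3.11 and 4.38. Of 40 DNA replication and mitosis genes, 19 were lower and none higher, with a median of -0.97. At the same sum 11 were lower and 1 higher, and with a pseudocount of 5 there were 10 lower and none higher. Mcm5, a subunit of the replicative helicase, was at 7.37, 26.2 and 22.9 and Rrm2, ribonucleotide reductase, at 5.31, 24.04 and 19.8, both lower, while Mki67, a marker of dividing cells, was at 26.5, 49.7 and 37.9 and Plk1, a mitotic kinase, at 31.9, 31.2 and 24.5, neither called.

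Hormone genes were 5 lower and 2 higher of 12, with a median of -0.63 (-0.27 with all 21 in the files). Gip, Cck and Ghrl, hormones of the proximal gut, were at 0, 21.2 and 151, 1.58, 9.95 and 62.2 and 0.589, 5.28 and 34.01. Pyy and Insl5, of the distal gut, were at 108, 28.9 and 3.02 and 49.5, 0 and 0. Gcg, the source of GLP-1, was at 66.3, 61.2 and 34.7 and just short of the limit. General enteroendocrine genes were nearer to each other, with 2 lower and none higher of 21 and a median of -0.49, and Chga, chromogranin A, was at 39.99, 29.2 and 53.7. Of 11 tuft cell genes 4 were lower and none higher, but their summed FPKM was only 17.42, 24.58 and 34.97. Trpm5, a cation channel of tuft cells, was at 1.28, 1.19 and 1.68.

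Transcription factors of the proximal gut and of absorptive cells went both ways. Of 39 proximal and absorptive factors, 12 were lower and 7 higher, with a median of -0.24 that became 0.03 at the same sum. Gata4 was at 0.137, 16.1 and 58.3, and Onecut2, a factor of the duodenum, at 0.008, 0.134 and 11.6. Pdx1, another duodenal factor, was at 0.303, 0 and 9.19. Creb3l3, which drives apolipoprotein genes, was at 1.31, 55.2 and 155 and Maf, an enterocyte factor, at 1.68, 90.5 and 79.4. The shared intestinal factors Cdx2 and Hnf4a were not called, at 82.5, 100.2 and 81.4 and 180.0, 231 and 192, whereas Hnf4g, a relative of Hnf4a, was at 16.9, 78.1 and 152.

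Of 27 distal factors in the files, 17 were compared, 13 of them higher and 1 lower, with a median of 2.71 (0.69 with all 27). Foxd2, a forkhead factor, was at 24.1, 0.139 and 0. The lower gene was Tbx3, a T-box factor, at 4.13, 33.8 and 33.4. The Hox genes were 23 higher of 24 compared among 39 in the files, with a median of 3.14 (1.64 with all 39) and a summed FPKM of 467.8, 25.47 and 2.213. The gene not called was Hoxb2 at 1.23, 0.059 and 0.353.

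The paralogues of number 13, the most posterior, were found in the large library alone: Hoxb13 was at 236 FPKM, Hoxd13 at 20.7 and Hoxa13 at 14.7, and all were listed at 0 in the lower and upper libraries. Hox genes at 1 FPKM or more in the lower small intestine were all of the Hoxb cluster, with Hoxb9 at 35.2, 6.65 and 0 and Hoxb6 at 31.5, 6.11 and 0.788. Hoxa10 and Hoxa9 were at 18.5, 0 and 0.16 and 12.2, 0 and 0.088, listed at 0 in the lower library. Every Hoxc gene was under 1 FPKM in all 3 libraries.

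**Figure D4:**
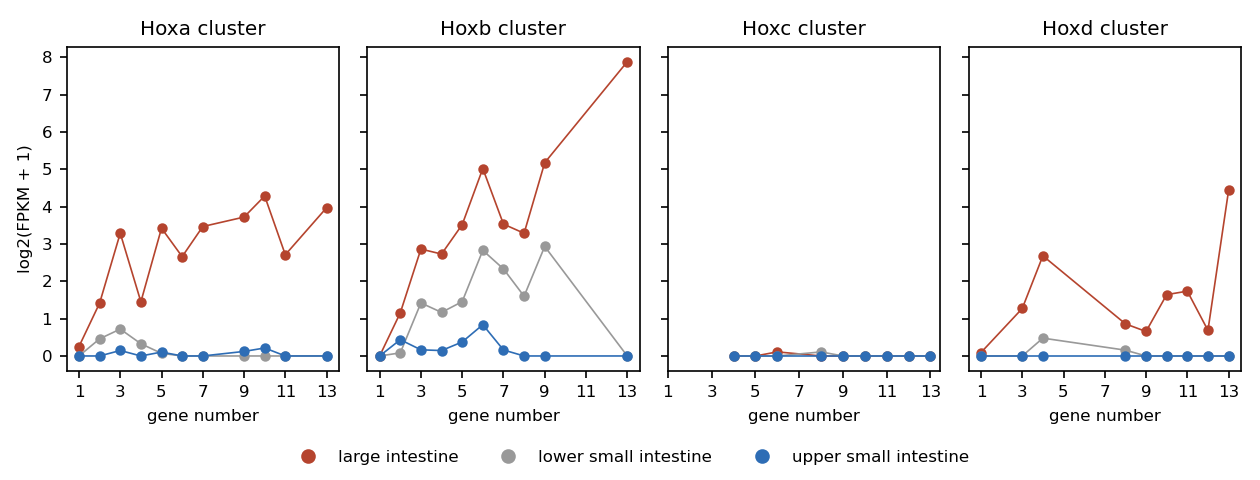
The x axis is the number of the gene within its cluster and the y axis log2(FPKM + 1), with 1 point per library and 1 panel per cluster. Large intestinal points stand above the others in the Hoxa, Hoxb and Hoxd clusters and highest at Hoxb13 (236 FPKM), and Hoxc points lie at or near 0.

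Signalling and clock genes were called in both directions, and over all genes compared 22.6% were called. Wnt, Notch, Eph and ErbB genes were 6 higher and 6 lower of 38 (1 and 3 with a pseudocount of 5), with a median of 0.25. Hes1, a Notch target, was at 128, 73.5 and 56.3, and Dll1, a Notch ligand of secretory cells, at 6.06, 12.5 and 21.4. Clock genes were 2 higher and 2 lower of 17, with a median of 0.2, and Dbp, a gene with strong daily rhythm, was at 52.5, 13.7 and 40.5, with the lower library furthest away. Hlf, a factor related to Dbp, was listed at 0 in the large intestine and at 4.64 in the upper library.

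Structural genes were found on both sides. Microvillus genes were 15 lower and 2 higher of 32, with a median of -0.85. Vil1, villin, which bundles actin in the brush border, was at 278, 913 and 974 and Pdzk1, a scaffold for apical carriers, at 3.63, 87.7 and 128. Tm4sf5, a tetraspan membrane protein gene, was at 2.56, 257 and 583. Keratins were 4 higher and 1 lower of 9, with a median of 0.76 (0.14 with all 19 in the files), and Krt19 was at 2437, 1819 and 1199.8 and Krt20 at 361, 968 and 702.

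Tight junction genes were 4 higher (7 at the same sum) and 1 lower of 19, with a median of 0.25. This is near the share called over all genes compared, 22.6%. Cldn15, a cation pore of the small intestine, was at 92.4, 246 and 348, whereas Cldn8, a sealing claudin of the distal colon, was at 17.6, 0.782 and 0.058. Ildr1, a tricellular junction protein gene, was at 68.01, 4.30 and 0.557. The general junction genes Tjp1 and Ocln were at 28.3, 24.6 and 23.2 and 32.01, 37.5 and 31.7 and were not called. Adhesion genes were 8 higher and 3 lower of 31 (12 and 1 at the same sum, 5 and 3 with a pseudocount of 5), with a median of 0.39. Ceacam1, an immunoglobulin-type adhesion receptor, was at 772, 357 and 120.1, Lamb3, a laminin chain of the basement membrane, at 48.4, 13.3 and 4.65 and the desmosomal gene Dsp at 110.1, 68.2 and 46.6. Cdhr2, a microvillus tip-link protocadherin, was lower at 155, 303 and 374.

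Some relatives differed in opposite directions. Of 1737 symbol roots with at least 2 compared genes, 196 (11.3%) held genes called both ways, and in 98 of these both leading genes reached 10 FPKM in their higher library. Over all genes compared, 11.0% were higher and 11.6% lower, so a root with many genes can hold both calls without any family pattern. The root Rnf, with 62 compared genes, 5 higher and 3 lower, is among those counted. The Mptx pair was the widest of the split roots by difference. Fabp6 and Fabp1 came next, followed by the amino acid carriers Slc6a14 and Slc6a19 (1.42, 237 and 249.2). Guca2a and Guca2b, which encode guanylin and uroguanylin, ligands of the receptor GUCY2C, lie close together on chromosome 4, at 119637704 to 119639471 and 119656607 to 119658954. Guca2a was at 2063, 806 and 249.2 and Guca2b at 26.7, 522 and 1653, while the receptor gene Gucy2c was not called at 117, 89.6 and 114.

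The large to upper ratio was 8.28 for Guca2a (interval 7.77 to 8.82) and 0.0162 for Guca2b (0.0135 to 0.0191). Among enzymes, Hsd17b2, which oxidises sex steroids, was at 139.8, 19.1 and 11.4 and Hsd17b6 at 0.174, 8.06 and 33.6. Pla2g10, a secreted phospholipase, was at 56.98, 3.94 and 1.24 and its relative Pla2g12b, which acts in lipoprotein secretion, at 2.67, 40.8 and 62.9. Galectins Lgals3 and Lgals2 were at 969, 271 and 264 and 6.53, 2468 and 1869, and annexins Anxa1 and Anxa13 at 95.1, 0.425 and 0.317 and 13.97, 174 and 192. A shared symbol root does not show that 2 genes are close relatives in function.

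**Figure D5:**
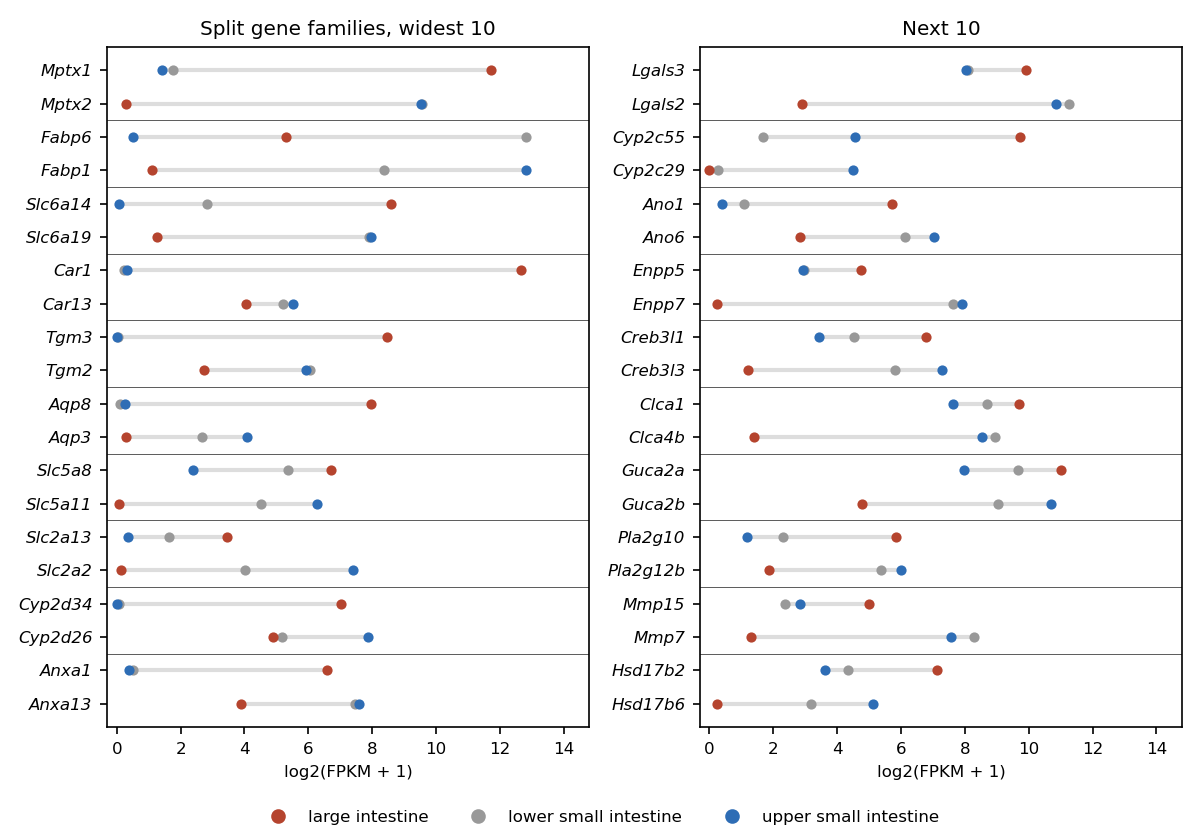
The 20 split families with the widest distance between their leading genes, both at 10 FPKM or more in their higher library, as pairs of rows. The x axis is log2(FPKM + 1) with 1 point per library, and in each pair the large intestinal point is to the right of the upper small intestinal one for the first gene and to the left for the other.

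Neighbouring genes shared calls at several loci. Of 11792 compared genes with a GENCODE position on GRCm38, 11.1% were higher and 11.6% lower. Runs of at least 4 neighbouring compared genes with the same call numbered 17 for higher genes, holding 92 genes, and 16 for lower genes, holding 84. The longest, 14 lower genes with a median of -7.02, was the alpha-defensin cluster at chromosome 8, 21025545 to 22060305, and ended in Defb1 and Atp7b, a copper pump gene. The Hoxa cluster at chromosome 6, 52162417 to 52267603, gave 13 higher genes (median 3.35) and the Hoxb cluster at chromosome 11, 96133786 to 96347930, 11 (median 3.37). Antisense Hox transcripts are counted in these runs, and overlapping genes may share reads.

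A run of 11 lower genes at chromosome 17, 34119541 to 34386028 (median -2.6), held class II genes, Psmb8, Psmb9, Tap1, Tap2, Btnl1 and Btnl2. At chromosome 3, 90511034 to 92485895, 9 higher genes (median 2.81) encoded S100 calcium-binding and small proline-rich proteins of the epidermal differentiation region. The Gsdmc genes formed a run of 4 at chromosome 15, 63775968 to 63912297 (median 4.91), and 5 Cyp2d genes one at chromosome 15, 82402846 to 82693148 (median 4.12). Mgam and its trypsin-like neighbours formed a lower run of 5 at chromosome 6, 40628831 to 41525079 (median -2.5), of which Prss2, Try4, Try5 and 2210010C04Rik are acinar genes listed at 0 in the large intestine.

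Promoter letters were counted in the 250 bases before each RefSeq gene start, on both strands, for 9361 compared genes, 967 of them higher and 1047 lower. The letters CAAAGTCCA, a site of HNF4 factors, were in 0.385% of all compared promoters, 0.414% of those of higher genes and 1.05% of those of lower genes. Among 197 promoters of genes at a difference of -3 or less the share was 3.05%, 6 promoters in number, and among 141 at 3 or more it was 0. The letters AGATAAG, which are read by factors of the GATA family, were in 1.65% of compared, 1.45% of higher and 3.15% of lower promoters, and in 3.55% and 5.58% of those at 3 or more and -3 or less. CDX letters (TTTATGG), as printed for Fabp1, were in 1.67%, 1.76% and 2.58%, and at those limits in 2.84% and 4.06%. CCAATAAA, read by posterior HOX proteins, was in 0.876%, 0.827% and 0.669%, and at those limits in 1.42% and 2.03%. In numbers the shares at 3 or more rest on 5, 4 and 2 promoters and those at -3 or less on 11, 8 and 4.

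The letters TATAAA, which occur in the TATA box, were in 6.7% of compared promoters, 10.4% of higher and 11.5% of lower ones. In promoters of genes at 3 or more and -3 or less the shares were 19.1% and 22.3%. The letters were counted on both strands and anywhere in the window, so these are not shares of promoters with a TATA box. Over all 27025 promoters of the table the shares were 0.377% for HNF4 letters, 2.76% for GATA, 2.46% for CDX, 1.11% for posterior HOX and 12.98% for TATAAA. Promoters of neighbouring copies, such as the alpha-defensins, are not independent of each other. These shares describe letters and not binding.

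The study named the nucleotide-hydrolysing ectoenzyme E-NTPD8, so the list of extracellular nucleotide genes is given last. Of 23 compared, 5 were higher and 9 lower, with a median of -0.19 that became 0.09 at the same sum. Entpd8 was not called, at 61.6, 52.03 and 65.1. The ATP-gated channel gene P2rx4 was higher, at 78.1, 26.7 and 22.6. Intestinal alkaline phosphatases Alpi and Akp3 were on the lower side at 6.76, 153 and 613 and 0.074, 1.08 and 286.

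The limits of the rule can be read from its nearest genes. Gstm1, a glutathione transferase gene at 212 against 105 FPKM, fell just short of a higher call, and Prnp, the prion protein gene at 79.2 against 39.1, was just called. Lcmt1, a methyltransferase gene at 13.3 against 27.7, fell just short of a lower call. Below the filter, Tmem190 at 0 and 0.999 and Tcte2 at 0.999 and 0.523 were left out, and Syt11 at 1.0 and 0.489 entered. Calls were more common at the ends of the expression range: 29.2% of 3484 genes at a mean under 5 FPKM, 17.5% of 4726 from 5 to 20, 21.2% of 3172 from 20 to 100 and 29.4% of 894 at 100 or more. Of 2433 called genes with an interval on their ratio, 2265 had one that left out 1. The intervals come from the same values as the calls, so this count is no check on the calls. Of the same 2433 genes, 437 had 20 or fewer implied reads in their higher library. Called genes listed at 0 in one library, 258 in number, have no interval and are not counted among these.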

How the data were processed

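RNA of epithelial cells from 3 regions of mouse intestine was measured by RNA sequencing, 1 library a region, from stranded mRNA libraries per the labels' protocols. The deposited tables give each gene a single value, read here as FPKM: the file headers give no unit, and Cufflinks 2.2.1 is the one quantifier among the tools of the submitters' processing notes, which list besides it Bowtie2 2.2.3, SAMtools 0.1.19, TopHat2 2.0.13 and the build mm10, without roles. The treatment of strand, the annotation and any filter were not given in the sources used here. Because the compared genes had a median deposited FPKM of 10.58, 10.6 and 10.61 in the large, lower and upper libraries although their sums differed, the authors' values share a common scale whose origin is not stated, and a one-sided shift of most genes would not show in it. If strand was not used, overlapping and antisense genes cannot be separated, and near-identical genes can share reads.

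From these values differences of log2(FPKM + 1), large minus upper, were computed with a pseudocount of 1, which understates the differences of low genes. Gene names with a value of 1 FPKM or more in either library were compared, and a difference of at least 1 in size was called. With 1 library a region, neither p-values nor errors between samples exist. Reads were implied from the spacing of low FPKM in genes with a single transcript, 1500 nt or longer: steps of 0.1195, 0.092 and 0.136 FPKM per read per kb put 70.5%, 73.8% and 72.9% of 403, 400 and 406 genes within 0.15 read of a whole number. The steps come from the values they describe, and recovery was too incomplete for a count test. Intervals treat reads as independent, which reads lacking molecular identifiers may not be. Positions came from GENCODE M21 (GRCm38), matched for 11792 of 12276 genes, and promoters from RefSeq (GRCm38.p6), matched for 9361. Families were taken as symbols with the same root, leaving out generic roots. Gene lists numbered 68, of which the list of mitochondrially encoded genes had no gene in the files, and some genes stand in several lists. Calculations used Python 3.11.15, pandas 2.3.3, numpy 2.4.6, scipy 1.17.1 and matplotlib 3.10.9. Calling was also run on simulated reads with counting error alone, which says nothing on variation between animals or preparations.

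The comparison, the lists and the members were chosen with earlier results of these data known. The rule for named genes took the 20 largest differences per direction at 10 FPKM or more, the 15 most abundant genes of each library, per list up to 6 genes of largest difference and 3 of highest FPKM, all markers of other cell types, the furthest members of split families and the genes at the limits of the rule, of which not all are reported here. Outside it, 61 genes were named after their values were seen: Aldh2, Aldoa, Apob, Asl, Atoh1, B3gnt6, Bdh1, Cdhr2, Cftr, Ciita, Ctss, Cyp2d10, Cyp2d12, Cyp2d13, Cyp2d9, Dhcr7, Dsp, Fdft1, Ffar2, Gbp2, Gcg, Gucy2c, Hk2, Hnf4g, Hoxa9, Hoxb2, Hspa1a, Iigp1, Kcnj13, Klk1, Ldhb, Mep1a, Mki67, Mogat2, Nos2, Nox1, Nr1i2, Nr3c2, Nupr1, Ocln, Pdx1, Pfkl, Pigr, Plk1, Scarb1, Slc11a2, Slc16a1, Slc1a5, Slc3a1, Slc43a1, Slc46a1, Slc5a9, Spink4, Stra6l, Suox, Tbx3, Tjp1, Tlr2, Tlr3, Tlr5 and Tmprss15. Alternatives were other pseudocounts, filters, scalings, a call at 2, short RNA names kept and protein-coding genes alone.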

Additional observations from a re-analysis of the deposited data

How the results depend on the processing

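The 1356 higher and 1419 lower calls became 691 and 788 with a pseudocount of 5 and 448 and 504 with a call at 2, and the 196 split families became 96 and 50. With a pseudocount of 0.1 there were 1723 and 1713 calls, and with a filter of 5 FPKM 979 and 1085. Scaling to the same sum gave 1877 and 1057, the same without the 50 most abundant genes 1538 and 1236 (55.4% higher), and a trimmed mean of log ratios 1371 and 1403. With differences taken from the all-gene median, the same-sum calls were 1302 and 1453. Lists with a median of at least 1 in size numbered 21, and 13 without the filter on low values, since low genes then enter. No named gene or list changed direction while called. Of 735 genes of the naming rule or named after it, 23 lost and 11 gained a call at the same sum, and 80 lost one with a pseudocount of 5. List medians changed sign at the same sum for ER folding genes (0.05 in place of -0.25) and erythrocyte genes (0.02 in place of -0.24), besides those given above. No paired analysis was possible because each region has 1 library, and no library could be left out. Depth limits genes near 1 FPKM. Of 2433 called genes with an interval, 437 rest on 20 or fewer implied reads, and 258 called genes outside these were listed at 0 in one library.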

Other observations

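Names of short RNA classes, set aside above, were unevenly spread over the libraries. They held 4.895%, 7.01% and 11.98% of the FPKM summed over all gene names in the large, lower and upper libraries. Of 1277 such names 74 reached 1 FPKM in the large or upper library, 31 of them called higher and 22 lower. Mir1892 was at 4714, 20219 and 49507 FPKM, and Mir762 at 16403 FPKM in the upper library and listed at 0 in the others. Mir677 was at 3349, 0 and 3854 FPKM and Mir1901 at 3349, 0 and 0 FPKM. An mRNA library does not capture mature microRNAs by design, and a value per kilobase of a very short feature rests on few fragments.

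Long non-coding genes were called about as often as protein-coding ones. Of 103 lincRNA genes by GENCODE biotype, 17 were higher and 12 lower (28.2% called), and of 124 antisense genes 18 were higher and 13 lower, beside 22.6% of 11334 protein-coding genes. Cytosolic ribosomal protein genes gave 1 higher and 3 lower of 89, with a median of 0.16.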
